A study of Mus musculus with 27 samples.

Results

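Transcripts of 8 cytosolic sulfotransferase genes, *Sult1a1*, *Sult1d1*, *Sult1e1*, *Sult2a1*, *Sult2a2*, *Sult2a3*, *Sult2a8* and *Sult3a1*, were examined in whole mouse liver. They were chosen by gene symbol from the 17655 genes listed in 4 deposited RNA-sequencing tables, and all 8 were found, although *Sult2a3* was not listed for the males fed WDA and was read as 0 there. The study used *Kdm5b* fl/fl mice fed Western diet and alcohol (WDA) and asked how loss of the histone demethylase KDM5B affects liver disease during alcohol feeding and after alcohol is stopped. There were 27 libraries, each from 1 mouse, with 3 mice in each of 9 groups.

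All mice carried the floxed *Kdm5b* alleles. WT mice received a control AAV8, KO mice received AAV8-CMV-Cre, whose promoter is not restricted to one cell type, and HepKO mice received AAV8-TBG-Cre, whose promoter is directed to hepatocytes. The 5 groups labelled with 8 weeks of WDA were WT, KO and HepKO females and WT and KO males. The 4 resolution (Res) groups, labelled with 16 weeks of feeding and then 4 of resolution, were WT and KO mice of each sex, and for these the labels write AAV rather than AAV8. According to the methods, mice in resolution were returned to chow and received the vector when alcohol was stopped. A contrast of Res with WDA therefore joins the end of alcohol, the change of diet, the length of feeding, the timing of the vector and the experiment number (11 for WDA, 12 for Res), and these cannot be told apart. The age of the sequenced mice is not given by the labels.

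Cytosolic sulfotransferases move a sulfonate group from the donor PAPS to hydroxyl or amino groups of small molecules, which makes them more soluble and usually ends their activity. Members of the SULT1 family act mainly on phenols, catecholamines and estrogens, and members of the SULT2A family act mainly on hydroxysteroids and bile acids. In rodent liver many of these genes differ between the sexes, a difference known to follow the sex-specific pattern of growth hormone secretion, and several respond to nuclear receptors for bile acids, oxysterols and xenobiotics.

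The genes lie at 4 places in the mouse genome (build GRCm38.p6, RefSeq positions). *Sult1a1* is at chr7:126672865-126690443, *Sult1d1* at chr5:87554650-87569006, *Sult1e1* at chr5:87575968-87591611 and *Sult3a1* at chr10:33851020-33879475. The other 4 belong to a cluster of 9 *Sult2a* genes, 1 of them a pseudogene, that spans 869 kb of chromosome 7: *Sult2a2* at chr7:13733506-13779637, *Sult2a1* at chr7:13796246-13837410, *Sult2a3* at chr7:14067555-14123048 and *Sult2a8* at chr7:14410686-14446780. *Sult2a3* and *Sult2a8* are 288 kb apart and were on opposite sides of the sex difference described below.

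The 250 bases before a RefSeq transcription start are shown for 4 members, because *Sult2a3*, *Sult3a1* and *Sult1e1* were higher after resolution in KO females and *Sult2a8* was the member with higher levels in males. RefSeq promoter windows were found for 6 of the 8 members, 7 windows in all, and *Sult2a1* and *Sult2a2* had none. Each sequence is written 5′ to 3′ on the strand of the gene, from chr7:14123049-14123298 (minus strand) for *Sult2a3*, chr7:14438552-14438801 (minus strand, the downstream start of 2) for *Sult2a8*, chr10:33857472-33857721 (plus strand) for *Sult3a1* and chr5:87591612-87591861 (minus strand) for *Sult1e1*. Capitals mark matches on either strand to 5 motifs: TTCNNNGAA (STAT5), AGGTCA (nuclear receptor half-site), ATTGAT (core of CUX2 and HNF6 sites), CCAAT and TATAAA.
Sult2a3: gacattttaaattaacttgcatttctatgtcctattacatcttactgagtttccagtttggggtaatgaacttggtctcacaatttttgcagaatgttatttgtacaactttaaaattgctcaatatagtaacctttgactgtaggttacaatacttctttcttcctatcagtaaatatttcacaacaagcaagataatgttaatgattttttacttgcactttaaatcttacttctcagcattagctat
Sult2a8: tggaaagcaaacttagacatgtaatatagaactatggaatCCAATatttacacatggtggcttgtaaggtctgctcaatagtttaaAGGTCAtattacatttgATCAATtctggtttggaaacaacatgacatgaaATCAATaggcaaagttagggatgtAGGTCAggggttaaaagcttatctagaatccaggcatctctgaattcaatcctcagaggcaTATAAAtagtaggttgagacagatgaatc
Sult3a1: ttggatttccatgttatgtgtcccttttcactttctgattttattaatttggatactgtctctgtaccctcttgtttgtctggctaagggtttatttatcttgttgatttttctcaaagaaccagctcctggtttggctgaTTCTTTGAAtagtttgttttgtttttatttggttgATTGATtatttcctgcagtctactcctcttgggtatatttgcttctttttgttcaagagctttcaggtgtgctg
Sult1e1: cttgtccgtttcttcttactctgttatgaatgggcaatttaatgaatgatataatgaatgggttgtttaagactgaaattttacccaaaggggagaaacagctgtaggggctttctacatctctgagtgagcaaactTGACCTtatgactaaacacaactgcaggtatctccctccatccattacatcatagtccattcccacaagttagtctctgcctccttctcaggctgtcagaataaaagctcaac
The *Sult3a1* window held 1 match to the STAT5 motif, 109 to 101 bases before the start, and 1 to the CUX2 and HNF6 core. The *Sult2a8* window shown held 2 matches each to the nuclear receptor half-site and the CUX2 and HNF6 core, 1 to CCAAT and 1 to TATAAA, which lay 29 to 24 bases before the start. The other *Sult2a8* window, chr7:14446588-14446837, held only 1 match, to TATAAA, 223 to 218 bases before its start. The windows shown for *Sult2a8* and *Sult3a1* lie within the gene positions given above. The *Sult1e1* window held 1 nuclear receptor half-site on the other strand, and the *Sult2a3* window held none of the 5. Among all 32851 RefSeq windows of this length, 7.02% held the STAT5 motif, 14% the half-site, 6.72% the CUX2 and HNF6 core, 33.8% CCAAT and 12.4% TATAAA.

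How well reads can be assigned differs between the members. In the GENCODE vM21 transcripts, *Sult2a1* and *Sult2a2* are 97.6% identical over 739 aligned bases, and *Sult2a3* is 93.4% identical to *Sult2a1*, whereas *Sult2a8* is 71.1% identical to *Sult2a1*. Of the 100-base stretches of *Sult2a2*, 34.6% also occur in another gene, against 11.4% for *Sult2a1*, 2.20% for *Sult1a1*, and 0% for *Sult1d1*, *Sult1e1*, *Sult2a3*, *Sult2a8* and *Sult3a1*. The deposited counts were not whole numbers for *Sult1a1* in 27 of 27 libraries, for *Sult2a1* in 21, for *Sult2a2* in 20 and for *Sult2a3* in 1, which marks reads divided among similar genes. The gene that shares most of these stretches with *Sult2a2* is *Sult2a5* of the same cluster (18.8%). How the counts were split among *Sult2a1*, *Sult2a2* and *Sult2a5* is therefore uncertain, and their separate values below carry that limit.

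The libraries held 1.46e+07 to 1.94e+07 counts, so that a floor of 3 counts stood at 0.126 to 0.190 CPM (counts-per-million). CPM values were scaled with TMM factors over all 27 libraries. Hepatocyte markers were abundant in every library, with *Alb* at 54149 CPM or more. *Kdm5b*, which a whole-liver count reads in all cells and whether or not the floxed part is present, was 10.6 to 13 CPM in Res KO females against 16.6 to 17.8 in Res WT females and 20.3 to 21.8 in WDA KO males against 23.7 to 24.6 in WDA WT males, without overlap, and the KO and WT groups were also apart in Res males. In WDA females the KO mice (14.4 to 24.3) overlapped the WT mice (21.5 to 31.0), and the HepKO mice (8.27 to 17.6) were below the WT mice.

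Several libraries stood apart before any sulfotransferase was considered. The summed level of 8 cholangiocyte markers was 532 CPM in WDA KO male 17, 468 in WDA WT female 7, 242 in Res WT female 13, 202 in Res KO male 5 and 158 in Res WT male 9. It was 105 in WDA KO male 18, 72.8 in WDA WT male 19, and 16.6 to 35.5 in the other 20 libraries. All 8 markers had counts in the first 5 of these libraries, but *Epcam* and *Sox9* had counts in every library and *Krt19* in all but 1. The most abundant, *Spp1*, ran from 12.3 to 474 CPM over all libraries, so the highest sums are mainly *Spp1*. *Epcam*, *Sox9* and *Krt19* reached at most 20.8, 14.5 and 6.99 CPM. The summed level of 10 stellate cell and fibroblast markers was also highest in WDA KO male 17 (878 CPM), WDA WT female 7 (755) and Res WT female 13 (597). The sum of 6 pancreatic acinar markers was 120 CPM in Res WT female 13 and at most 1.40 in any other library.

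Res KO male 5 went against its label in part. The sum of 17 female-biased liver genes was 1341 CPM in this mouse, 98.0 to 358 in the other 5 Res males and 2192 to 4927 in the Res females. It was above all other Res males for 14 of these 17 genes and reached the range of the Res females for 9. The sum of 16 male-biased genes went with the label, at 11374 CPM or more in Res KO males and 832 to 1497 in Res WT females. Male 5 was at or above the lowest Res female for all 16, as was every Res male. This mouse was below all other Res males for 7 of them, against 6 for Res KO male 11. Its Y-linked transcripts were present, but 3 of 4 were below the range of all other males (*Ddx3y* 38.4 CPM against 47.1 to 80.8, *Kdm5d* 11.0 against 13.2 to 19, *Uty* 11.5 against 13.1 to 19.5), and *Eif2s3y* was within it. Fold changes below that rest mainly on this mouse are also given without it.

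Per transcript length, the 8 genes covered a wide range. In WDA WT males, *Sult1a1* (396 FPKM) and *Sult2a8* (314 FPKM) were the most abundant members, *Sult1d1* was at 53.5, and the other 5 were below 1 FPKM. In Res KO females, *Sult1a1* (551 FPKM) was followed by *Sult2a2* (447), *Sult2a1* (306), *Sult2a8* (128), *Sult1d1* (114), *Sult3a1* (63.0), *Sult2a3* (17.4) and *Sult1e1* (12.0). These are means of the deposited FPKM values over 3 mice. In whole liver, fewer cells of a type and less RNA per cell cannot be told apart.

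**Figure D1:**
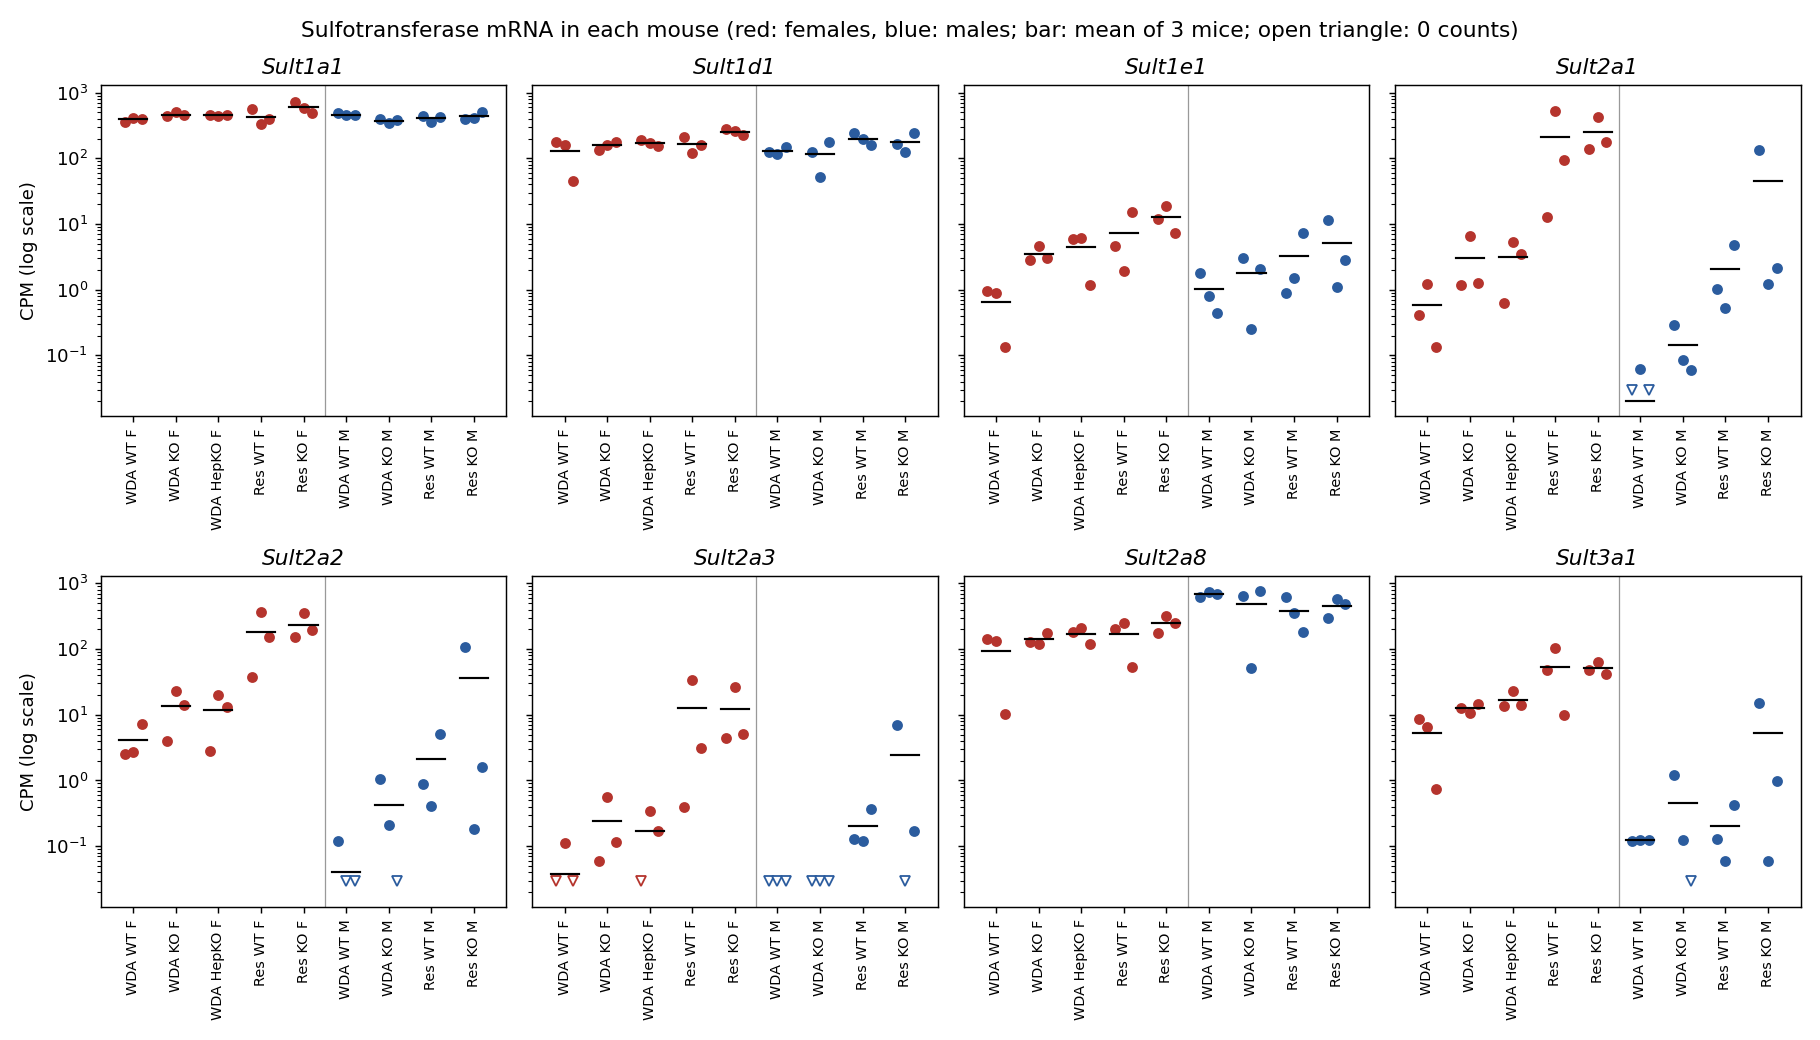
CPM of each of the 8 sulfotransferase genes (log scale) in each of the 27 mice, by group, with females in red, males in blue, a bar at the mean of 3 mice and open triangles for 0 counts. *Sult1a1* stays between 334 and 712 CPM, while *Sult2a1*, *Sult2a2*, *Sult2a3* and *Sult3a1* are highest in Res females and near 0 in WDA males.

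*Sult1a1*, which sulfonates phenols, varied least. It was between 334 and 712 CPM in all 27 mice, and in the order of the 9 group means from Res KO females (595 ± 114 CPM, SD, n = 3) to WDA KO males (371 CPM) each group overlapped its neighbour. *Sult1d1*, which acts on catecholamines and eicosanoids, ran from 44.9 CPM in WDA WT female 7 and 52.4 in WDA KO male 17 to 277 in Res KO female 2. Its neighbouring groups overlapped throughout that order too.

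*Sult1e1*, the estrogen sulfotransferase, was low in every group. It was 0.954, 0.890 and 0.132 CPM in WDA WT females and 12.0, 18.9 and 7.30 in Res KO females, the lowest and the highest group. Those groups did not overlap, although all neighbours in the order did.

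*Sult2a1*, *Sult2a2* and *Sult2a3*, hydroxysteroid sulfotransferases, spanned the widest range. *Sult2a1* was 12.7, 524 and 93.5 CPM in Res WT females 1, 12 and 13 and 139, 428 and 175 in Res KO females 2, 3 and 4. In WDA females it was between 0.132 and 6.56 CPM, and in WDA males at or under 0.291. All 6 Res females were thus above all 9 WDA females, but within the Res WT group the highest mouse was far above the lowest.

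*Sult2a2* followed the same order of mice in Res females, with 36.9, 362 and 150 CPM in WT mice and 151, 351 and 196 CPM in KO mice. *Sult2a3* was lower, with 0.395, 34.1 and 3.12 CPM in the WT mice and 4.51, 26.8 and 5.13 CPM in the KO mice. It had 0 counts in all 6 WDA males, which allows up to 0.187 CPM in these libraries, and at most 10 counts in any WDA female. Female 12 was the highest of the WT mice and female 3 of the KO mice for all 3 genes.

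*Sult2a8*, a bile acid sulfotransferase of male mouse liver, ran the other way between the sexes. It was 617, 729 and 697 CPM in WDA WT males and 142, 132 and 10.3 CPM in WDA WT females, and the 4 male groups held the 4 highest means of the 9. The lowest value in each sex, 51.0 in WDA KO male 17 and 10.3 in WDA WT female 7, came from the libraries with the highest cholangiocyte marker sums.

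*Sult3a1*, an amine sulfotransferase, was 48.0, 102 and 9.92 CPM in Res WT females and 48.2, 64.0 and 41.9 in Res KO females. It was 0.749 to 23.2 CPM in WDA females and at or under 1.22 CPM in every male except Res KO male 5 (15.1). In its order of group means, Res KO females did not overlap the next group, WDA HepKO females. All other neighbours overlapped.

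The sexes were compared within each stage and vector. *Sult2a1*, *Sult2a2*, *Sult2a3* and *Sult3a1* were lower in males and *Sult2a8* higher, by point estimate, in each comparison in which they were tested. *Sult1a1*, *Sult1d1* and *Sult1e1* had no single direction. The mean of *Sult1e1* was 1.01 CPM in WDA WT males and 0.659 in WDA WT females, and elsewhere it was lower in males. *Sult1a1* in WDA WT mice was 0.24 by TMM and -0.095 when scaled by library totals. Males and females were deposited in separate tables of unnormalized counts. In WDA WT mice, 1 of the 6 members tested passed edgeR's quasi-likelihood test (adjusted p under 0.05, Benjamini-Hochberg over all genes tested), beside 0.851% of all genes tested. At an unadjusted p under 0.05 there were 3 members and 14.2% of genes, and DESeq2 called 2 members and 3.9% of genes. Between the sexes 5 of the 8 members did not overlap, beside 24.2% of genes tested. Here and below, such counts of members include any that edgeR did not test, such as *Sult2a1* here, while the share covers tested genes only.

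That member was *Sult2a2*, with 0.120, 0 and 0 CPM in WT males and 2.50, 2.67 and 7.36 CPM in WT females of the WDA stage. No male reached a female. The fitted log2 fold change was -6.48 (SE 0.95, adjusted p = 0.0427 in edgeR), and from 2 counts in all WDA WT males the ratio of females to males was 110, with a 95% counting interval of 30.1 to 911.

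*Sult3a1* was 0.120, 0.122 and 0.125 CPM in these males and 8.65, 6.51 and 0.749 CPM in the females, again without overlap (-5.35, SE 1.02, adjusted p = 0.0855 in edgeR). *Sult2a8* was higher in all 3 males (2.85, SE 0.84, adjusted p = 0.223 in edgeR). Both passed without WDA WT female 7, the library with a cholangiocyte sum of 468 CPM: *Sult3a1* at -5.86 (SE 0.31, adjusted p = 1.11e-05 in edgeR) and *Sult2a8* at 2.32 (SE 0.11, adjusted p = 4.57e-06 in edgeR). In that fit 8.35% of genes passed. *Sult2a2* lost its call without any one of the other 5 mice, with adjusted p between 0.0996 and 0.245 in edgeR. *Sult2a1*, with 1 count in the 3 males and 32 in the 3 females, was not tested, and its ratio was 27.3 (4.56 to 1112).

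In WDA KO mice, 0 of 7 members passed, beside 0.296% of genes, although 3 members and 11.4% of genes had an unadjusted p under 0.05 and DESeq2 called 3 members and 2.69% of genes. These 3 were *Sult2a1* (-4.33, SE 0.95), *Sult2a2* (-5.02, SE 0.98) and *Sult3a1* (-4.84, SE 0.84), with adjusted p of 0.170, 0.116 and 0.0842 in edgeR. All 3 were lower in every male than in every female, and 5 of the 8 members did not overlap, beside 17.9% of genes tested. *Sult2a8* was 650 and 772 CPM in males 16 and 18 but 51.0 in male 17, below all 3 females (121 to 176). Without male 17, *Sult2a8* was 2.34 higher on the log2 scale (SE 0.18, adjusted p = 0.000192 in edgeR), and *Sult2a2* and *Sult3a1* also passed (adjusted p = 0.0481 and 0.0104 in edgeR), beside 2.8% of genes. *Sult3a1* passed without male 16 as well (adjusted p = 0.00463 in edgeR). No share of all genes is given for that fit, or for later calls with a mouse left out that stand without one. Leaving out a mouse can raise the share, as without WDA WT female 7 between the sexes (from 0.851% to 8.35%).

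In Res WT mice, 1 of 7 members passed, beside 0.545% of genes, with 3 members and 9.03% of genes at an unadjusted p under 0.05. Between the sexes 4 of the 8 members did not overlap, beside 15.3% of genes tested. *Sult3a1* was 0.126, 0.0593 and 0.422 CPM in males against 48.0, 102 and 9.92 CPM in females. The groups were far apart (-7.93, SE 1.11, adjusted p = 0.0299 in edgeR), and the call was lost without female 1 or any one of the 3 males (adjusted p 0.0540 to 0.246 in edgeR). *Sult2a1* was 1.01, 0.534 and 4.75 CPM in males (-6.60, SE 1.48, adjusted p = 0.162 in edgeR), and *Sult2a2* was 0.885, 0.415 and 5.12 CPM (-6.37, SE 1.12, adjusted p = 0.0659 in edgeR). Neither overlapped with females, and the higher values in males were from mouse 9, whose cholangiocyte sum was 158 CPM. *Sult2a2* passed without that mouse (-8.14, SE 1.23, adjusted p = 0.0402 in edgeR). DESeq2 called *Sult2a1*, *Sult2a2*, *Sult2a3* and *Sult3a1*, beside 1.76% of genes. *Sult2a8* overlapped between the sexes after resolution (182 to 610 CPM in males, 53.7 to 253 CPM in females).

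In Res KO mice, 0 of 8 members passed, beside 6.34% of genes, with 3 members and 23.3% of genes at an unadjusted p under 0.05 and 1 member (*Sult2a8*) and 8.87% of genes called by DESeq2. Of the 8 members, 3 did not overlap, beside 28.8% of genes tested. Male 5 had 132 CPM of *Sult2a1*, 109 of *Sult2a2*, 7.03 of *Sult2a3* and 15.1 of *Sult3a1*, against 1.21, 0.181, 0 and 0.0603 in male 6 and 2.12, 1.61, 0.172 and 0.975 in male 11. Its *Sult2a3* lay within the range of the 3 females, and its other values were below them. Without male 5, 6 of the 8 members passed, beside 8.84% of genes: *Sult2a1* (-7.20, SE 0.64), *Sult2a2* (-7.99, SE 0.68), *Sult2a3* (-6.99, SE 1.34), *Sult3a1* (-6.58, SE 0.52) and *Sult1e1* (-2.67, SE 0.49) were lower in males, and *Sult2a8* was higher (1.10, SE 0.24). Their adjusted p in edgeR ran from 0.000273 to 0.0294.

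**Figure D2:**
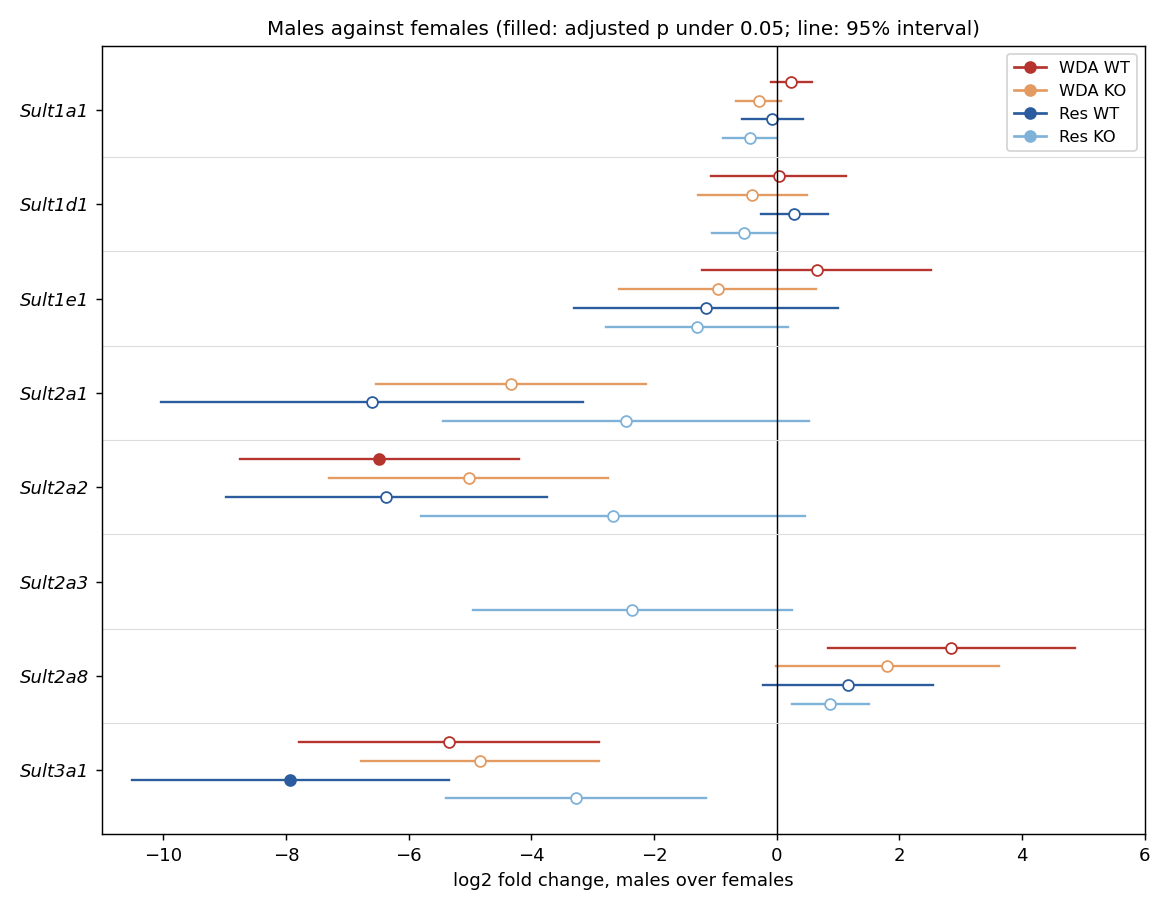
Log2 fold change of males over females for each member in WDA WT, WDA KO, Res WT and Res KO mice, with lines for 95% intervals from the fit and filled points for an adjusted p under 0.05; members that were not tested have no point. *Sult2a1*, *Sult2a2* and *Sult3a1* lie left of 0, *Sult2a8* lies right of it, and the filled points are *Sult2a2* in WDA WT mice (-6.48) and *Sult3a1* in Res WT mice (-7.93).

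Resolution was compared with WDA within each sex and vector. In edgeR's test on the groups of each comparison alone, the most calls were in KO females. There 7 of 8 members were called higher after resolution, beside 20.4% of all genes called in either direction (1273 higher and 1277 lower). DESeq2 called the same 7, beside 19.3% of genes. At an unadjusted p under 0.05 there were 8 members and 35.8% of genes, and 6 of the 8 members did not overlap, beside 40.5% of genes tested.

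*Sult2a1* rose from 1.17, 6.56 and 1.28 CPM to 139, 428 and 175 CPM. Its log2 fold change was 6.36 (SE 0.67, adjusted p = 0.000877 in edgeR), which is 82.3-fold. *Sult2a3* rose from 0.0585, 0.551 and 0.116 CPM to 4.51, 26.8 and 5.13 CPM (5.60, SE 0.94, adjusted p = 0.00472 in edgeR). The lowest Res mouse was above the highest WDA mouse for each.

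*Sult2a2* rose from 3.98, 22.6 and 14.3 CPM to 151, 351 and 196 CPM (4.11, SE 0.53, adjusted p = 0.00193 in edgeR). *Sult3a1* rose from 12.6, 10.7 and 14.8 CPM to 48.2, 64.0 and 41.9 CPM (2.04, SE 0.18, adjusted p = 0.000415 in edgeR). Neither gene overlapped between the stages. *Sult1e1* rose from 2.86, 4.58 and 3.08 CPM to 12.0, 18.9 and 7.30 CPM (1.88, SE 0.34, adjusted p = 0.00598 in edgeR), also without overlap.

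*Sult1d1* rose less, from 134, 158 and 179.6 CPM to 277, 259.5 and 229 CPM (0.72, SE 0.13, adjusted p = 0.00721 in edgeR). *Sult2a8* overlapped, with 128, 121 and 176 CPM before and 173, 321 and 246 CPM after (0.82, SE 0.22, adjusted p = 0.0275 in edgeR), and its call was lost without WDA mouse 1 or 2 or Res mouse 3 or 4 (adjusted p 0.0610 to 0.0862 in edgeR). *Sult1a1* was 0.38 higher (SE 0.15) and did not pass (adjusted p = 0.0983 in edgeR). The other 6 calls held without any one mouse. With a spread shared by all 9 groups, 3 of the 7 were called, beside 11.5% of genes, namely *Sult2a1*, *Sult2a2* and *Sult2a3*.

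In WT females, 0 of 7 members passed between Res and WDA, beside 0% of genes. At an unadjusted p under 0.05 there were 4 members and 13.6% of genes, and DESeq2 called 4 members (*Sult1e1*, *Sult2a1*, *Sult2a2* and *Sult2a3*) and 2.73% of genes. Of the 8 members, 5 did not overlap, beside 20.3% of genes tested. *Sult2a1* went from 0.417, 1.22 and 0.132 CPM to 12.7, 524 and 93.5 CPM (8.48, SE 1.64, adjusted p = 0.194 in edgeR). *Sult2a2* went from 2.50, 2.67 and 7.36 CPM to 36.9, 362 and 150.1 CPM (5.41, SE 0.95, adjusted p = 0.189 in edgeR). The stages did not overlap for either gene, and the Res mice differed widely among themselves.

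*Sult3a1* (3.33, SE 1.03) and *Sult1e1* (3.50, SE 0.97) were also higher in every Res than in every WDA mouse of the WT females, with adjusted p of 0.266 and 0.240 in edgeR. For *Sult2a1*, *Sult2a2*, *Sult3a1* and *Sult1e1*, the estimates and their SE were larger in WT than in KO females. With a spread shared by all 9 groups, these were among the members called in WT females (adjusted p 0.00636 to 0.0476 in edgeR). The share of all genes is not given for that fit. *Sult2a3* was not tested by edgeR on these groups alone. From 2 counts in WDA and 691 in Res its ratio was 348 (95% counting interval 96.0 to 2880), for counting error only. Of the Res counts, 618 came from female 12 and 7 from female 1. In this contrast, the WDA group holds female 7 and the Res group female 13, with cholangiocyte sums of 468 and 242 CPM. The part of those markers in the result was not tested.

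In WT males, 1 of 4 members tested passed, beside 11% of genes, with 2 members and 30.6% of genes at an unadjusted p under 0.05. Of the 8 members, 6 did not overlap, beside 35.8% of genes tested, but *Sult2a1*, *Sult2a2* and *Sult2a3* among these were not tested. *Sult1a1* was also among them, at 451 to 485 CPM on WDA and 354 to 434 CPM after resolution. *Sult1d1* was 127, 117 and 148 CPM on WDA and 242, 198 and 159 CPM after resolution. It was higher in all 3 Res males (0.62, SE 0.15, adjusted p = 0.0393 in edgeR), but the call was lost without any one mouse other than Res male 9 (adjusted p 0.0689 to 0.144 in edgeR). *Sult2a8* was 617, 729 and 697 CPM on WDA and 610.4, 350.5 and 182 CPM after resolution, lower in all 3 Res males (-0.83, SE 0.35, adjusted p = 0.151 in edgeR), and it passed without Res male 7 (-1.34, SE 0.26, adjusted p = 0.0329 in edgeR).

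*Sult2a1* and *Sult2a2* were nearly uncounted in WDA WT males (1 and 2 counts over 3 mice) and had 115 and 118 counts in Res WT males. Their ratios were 109 (19.2 to 4352) and 56.0 (15.2 to 468), for counting error only. Of these counts, 90 and 97 came from male 9. Both genes were called by DESeq2, with *Sult1d1* and 13.3% of genes, and by edgeR without a filter. *Sult2a3* went from 0 to 11 counts, at least 1.12-fold.

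In KO males, 0 of 7 members passed, beside 0% of genes, with 2 members and 6.43% of genes at an unadjusted p under 0.05, and no member and 0.603% of genes called by DESeq2. *Sult2a1* was 0.291, 0.0838 and 0.0600 CPM on WDA and 132, 1.21 and 2.12 CPM after resolution (8.25, SE 2.25, adjusted p = 0.636 in edgeR). Every Res male was above every WDA male, and 13.1% of genes tested were without overlap one way or the other. The value of 132 CPM is that of male 5. Without that mouse the difference was 3.49 (SE 0.75, adjusted p = 0.682 in edgeR), and on the deposited FPKM with it 5.11. *Sult2a3* had 0 counts on WDA and 117 in Res, at least 15-fold, of which 114 were from male 5. Without males 17 and 5, *Sult1e1* and *Sult3a1* changed from 1.51 and 3.57 to -0.40 and -0.24.

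**Figure D3:**
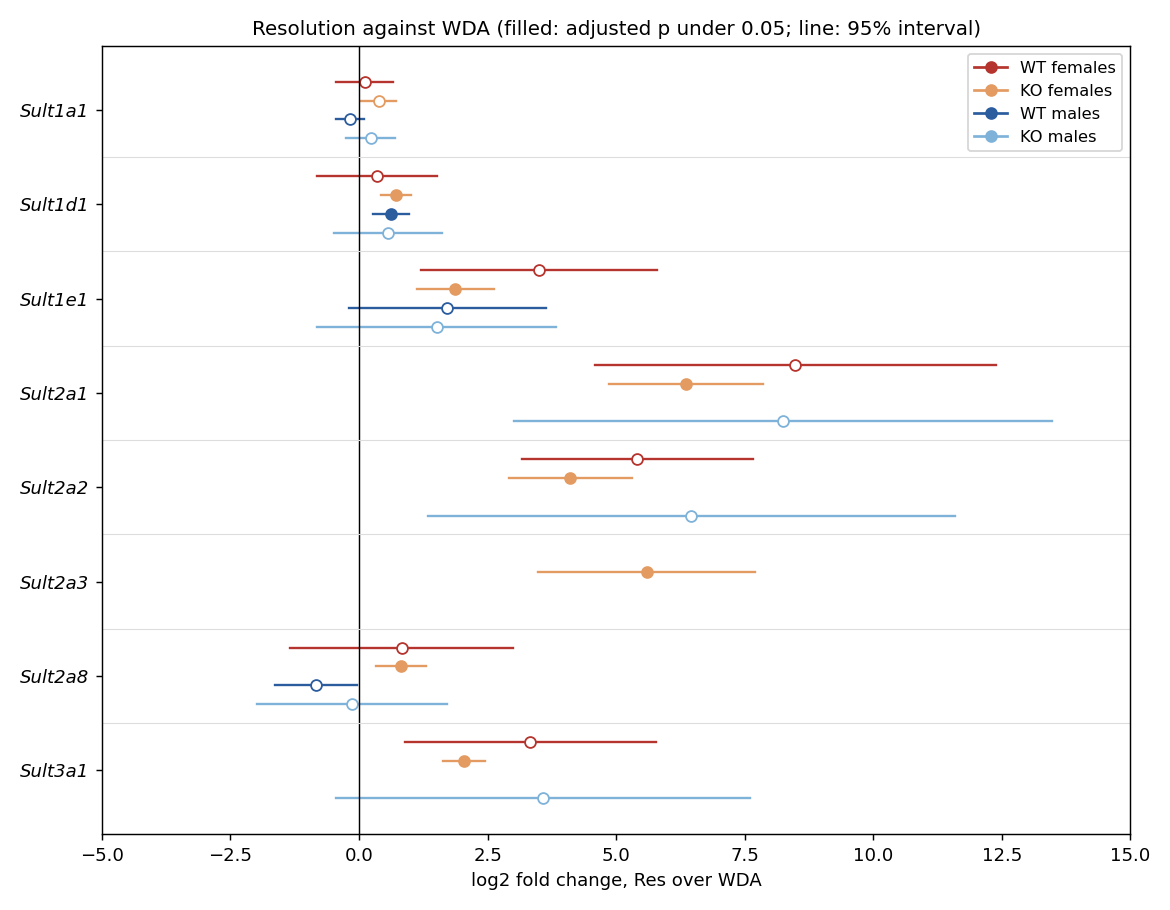
Log2 fold change of resolution over WDA for each member in WT females, KO females, WT males and KO males, with lines for 95% intervals from the fit and filled points for an adjusted p under 0.05; members that were not tested have no point. In KO females 7 members are filled, from 0.72 for *Sult1d1* to 6.36 for *Sult2a1*, and in WT males *Sult1d1* is filled at 0.62.

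Whether the stage effect differed between sexes was tested as an interaction. In WT mice 0 of 7 members passed, beside 0.0076% of genes, and in KO mice 0 of 8 passed, beside 0% of genes. No member had an unadjusted p under 0.05 or was called by DESeq2 in either, beside 7.71% and 7.9% of genes at an unadjusted p under 0.05 and 0.63% and 0.705% called by DESeq2. For *Sult2a8* the interaction was -1.68 in WT mice (95% interval -4.09 to 0.74) and -0.94 in KO mice (-2.91 to 1.03). For *Sult2a2* in KO mice it was 2.37 and turned to -2.95 without Res KO male 5.

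The knockout itself was compared with the control vector within each sex and stage. In WDA females, 0 of 7 members passed, beside 0% of genes, although all 7 point estimates were above 0. At an unadjusted p under 0.05 there were 3 members and 3.11% of genes, and DESeq2 called no member and 0.0489% of genes. The KO and WT mice did not overlap for 3 of the 8 members, beside 8.92% of genes tested. *Sult1e1* was 2.86, 4.58 and 3.08 CPM in KO mice and 0.954, 0.890 and 0.132 in WT mice, without overlap (2.42, SE 0.61, adjusted p = 0.978 in edgeR). *Sult2a1* (2.34, SE 0.94) and *Sult2a2* (1.65, SE 0.68) had the same adjusted p and overlapped between the groups.

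HepKO females were set against the same WT mice, so these contrasts share their controls. Of 7 members, 0 passed, beside 0% of genes, with 3 members and 10.1% of genes at an unadjusted p under 0.05. Of the 8 members, 3 did not overlap, beside 18.6% of genes tested. *Sult1e1* was 5.93, 6.14 and 1.18 CPM in HepKO mice (2.77, SE 0.82, adjusted p = 0.358 in edgeR) and was the 1 member called by DESeq2, beside 1.67% of genes. *Sult3a1* was 13.7, 23.2 and 13.9 CPM in HepKO mice against 8.65, 6.51 and 0.749 in WT mice (1.69, SE 0.71, adjusted p = 0.493 in edgeR). Both were higher in all 3 HepKO mice. Without WT female 7, *Sult3a1* passed (1.16, SE 0.25, adjusted p = 0.0471 in edgeR), a call given without the share of all genes.

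HepKO and KO females were compared directly. Of 7 members 0 passed, beside 0.0162% of genes, none had an unadjusted p under 0.05, beside 5.74% of genes, and DESeq2 called none, beside 0.284% of genes. The differences were bounded most tightly for *Sult1a1* (-0.04, 95% interval -0.26 to 0.17) and *Sult1d1* (0.14, -0.16 to 0.43) and least for *Sult2a1* (0.06, -1.63 to 1.74). A p that misses the threshold does not show that the vectors acted alike.

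In WDA males, 0 of 4 members passed, beside 0% of genes, with no member and 7.71% of genes at an unadjusted p under 0.05, and no member and 0.117% of genes called by DESeq2. *Sult1a1* was 395, 343 and 376 CPM in KO males and 485, 451 and 457 in WT males, lower in all 3 KO mice by CPM (-0.30, SE 0.13, adjusted p = 0.588 in edgeR). By the deposited FPKM the groups overlapped, with KO male 17 at 432 above the WT males at 378 to 423, and the difference was -0.12. *Sult2a8* was 650, 51.0 and 772 CPM in KO males and overlapped the WT males.

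In Res females, 0 of 8 members passed, beside 0% of genes, with 1 member and 19.2% of genes at an unadjusted p under 0.05. *Sult1d1* was 277, 259.5 and 229 CPM in KO mice and 212, 121 and 159 in WT mice. All 3 KO mice were higher (0.63, SE 0.20, adjusted p = 0.167 in edgeR), as for 25.7% of genes one way or the other, and the gene passed with DESeq2, beside 4.89% of genes, and in edgeR without WT female 1 (adjusted p = 0.0467 and 0.0407). *Sult2a1*, *Sult2a2*, *Sult2a3* and *Sult3a1* overlapped between the groups, with log2 fold changes between -0.06 and 0.33. Their 95% intervals were wide, for example -2.14 to 2.59 for *Sult2a1*.

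In Res males, 0 of 6 members passed, beside 0% of genes, with 2 members and 1.45% of genes at an unadjusted p under 0.05, and no member and 0.012% of genes called by DESeq2. The 2 members, *Sult2a1* (4.38, SE 1.65) and *Sult2a2* (4.06, SE 1.75), rested on KO male 5. Without it they were -0.37 (SE 0.84) and -1.28 (SE 1.13).

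**Figure D4:**
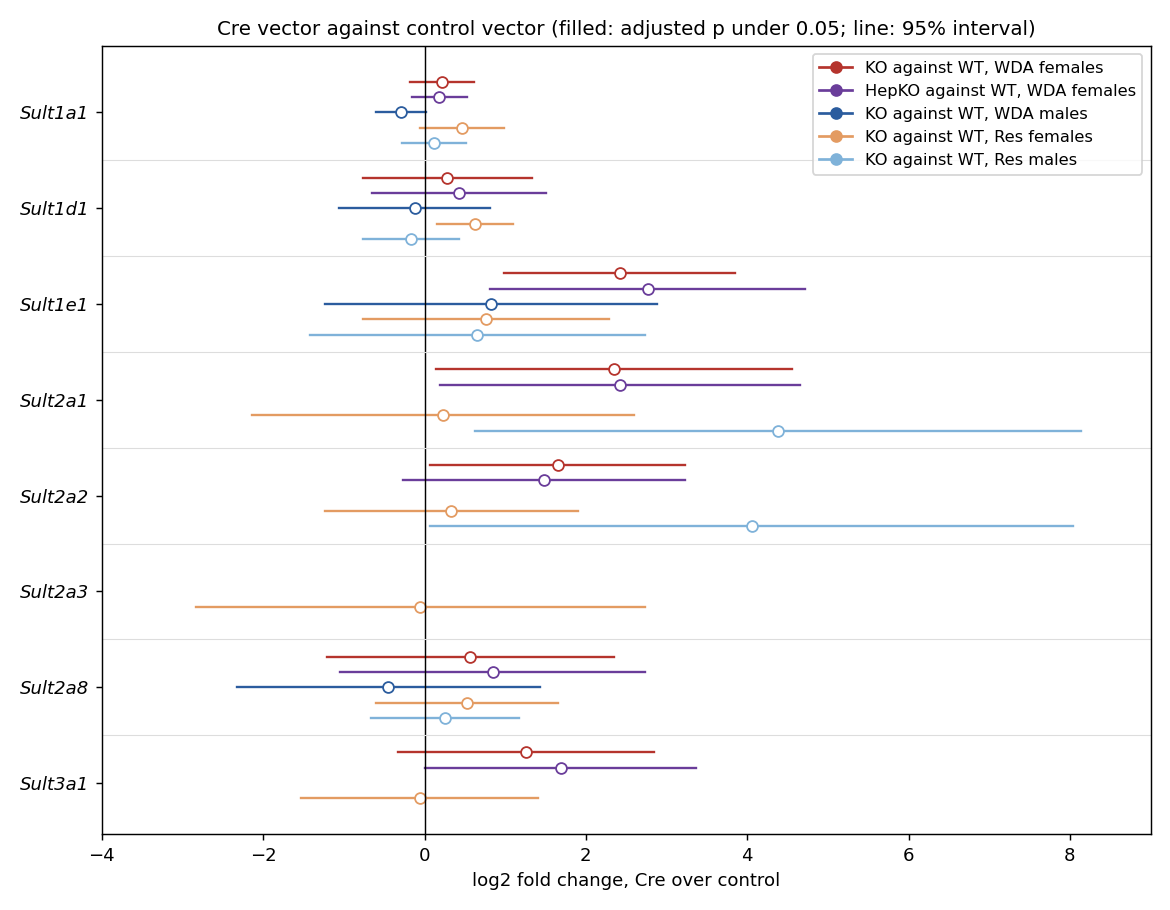
Log2 fold change of Cre vector over control vector for each member in 5 comparisons, with lines for 95% intervals from the fit; no point is filled because no adjusted p was under 0.05, and members that were not tested have no point. *Sult1e1* lies at 2.42 and 2.77 in WDA KO and HepKO females, and *Sult2a1* at 4.38 in Res males, which rests on male 5.

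The remaining interactions gave no call. The knockout effect in resolution did not differ between the sexes for any of 8 members at the threshold, beside 0% of genes, with *Sult1d1* (-0.81, SE 0.37) and *Sult3a1* (4.66, SE 1.95) at an unadjusted p under 0.05, beside 11.5% of genes, and no member and 0.642% of genes called by DESeq2. The *Sult3a1* value rested on Res KO male 5, and it was 1.35 (SE 1.82) without that mouse and 2.15 on the deposited FPKM with it. In females, the knockout effect was not called as different between the stages for any of 8 members, beside 0% of genes, with no member and 6.21% of genes at an unadjusted p under 0.05, and no member and 0.0059% of genes called by DESeq2. There the estimates for *Sult2a1*, *Sult2a2* and *Sult2a3* were -2.13 (SE 1.75), -1.29 (SE 1.08) and -2.60 (SE 3.08), the last of which was -0.35 on the deposited FPKM.

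Within groups, some members varied together. Over the 27 libraries, Pearson's r of log2 CPM was 0.96 between *Sult2a1* and *Sult2a3*, 0.92 between *Sult2a1* and *Sult2a2* and 0.89 between *Sult2a2* and *Sult3a1*. It was -0.38 between *Sult2a2* and *Sult2a8*. These values describe libraries that differ by sex and stage, and the *Sult2a* genes also share reads. After the mean of each group was subtracted, r was 0.94, 0.86 and 0.68 for the first 3 pairs, and 0.79 for *Sult1d1* with *Sult2a8*, which do not share 100-base stretches with other genes.

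*Sult2a8* and *Sult1d1* were lowest in the 2 libraries with the highest cholangiocyte marker sums. WDA WT female 7 had 10.3 CPM of *Sult2a8* and 44.9 of *Sult1d1*, against 132 to 142 and 159 to 180.2 in the other 2 mice of its group. WDA KO male 17 had 51.0 and 52.4 CPM, against 650 to 772 and 123 to 179.7 in the other 2. Res WT female 13 had 53.7 CPM of *Sult2a8*, and Res WT male 9 and Res KO male 5 had 182 and 302, each the lowest of its group. For *Sult1d1*, Res WT male 9 was the lowest of its group (159 CPM), but Res WT female 13 (159, between 121 and 212) and Res KO male 5 (164, between 123 and 244) were not. *Sult1a1* was 403 CPM in female 7, between the other 2 mice of its group, and 343 in male 17, the lowest of its group. Whether bile duct tissue in the sample has a part in these values was not tested.

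**Figure D5:**
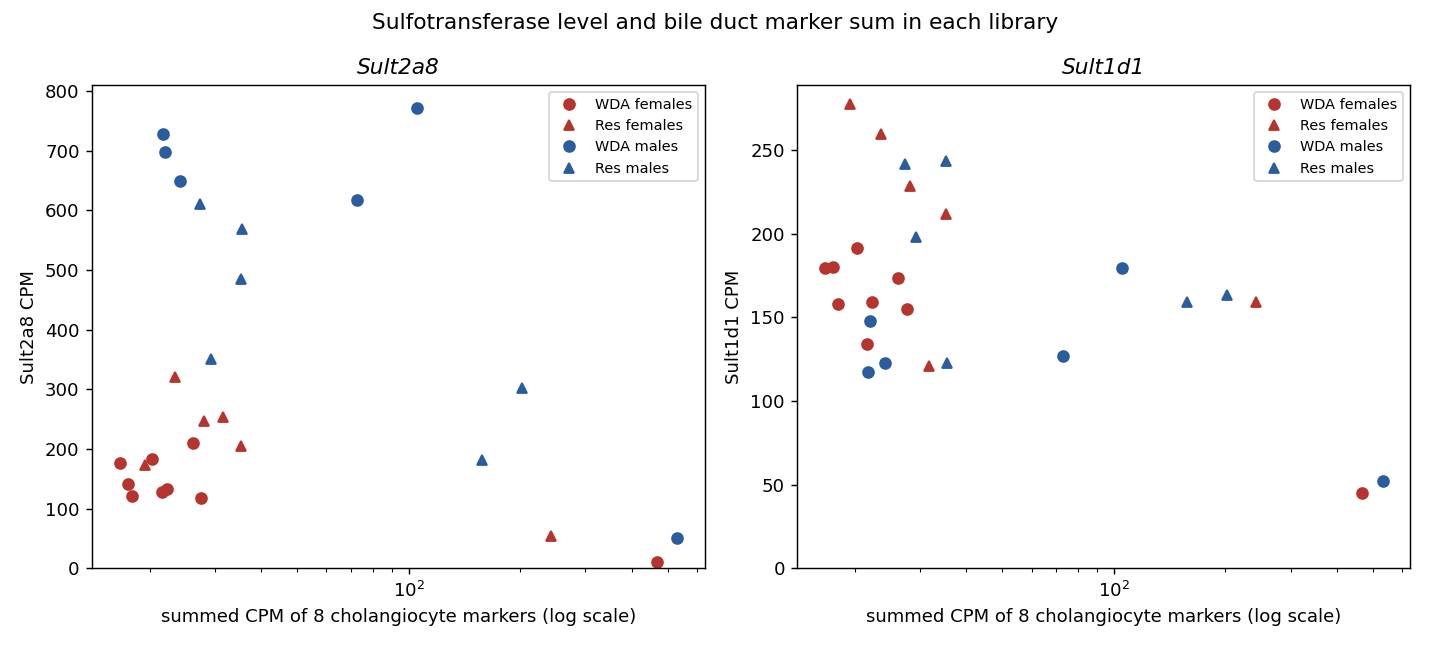
CPM of *Sult2a8* (left) and *Sult1d1* (right) in each of 27 libraries against the summed CPM of 8 cholangiocyte markers (log scale), with females in red, males in blue, circles for WDA and triangles for Res. The libraries with marker sums of 468 and 532 CPM have 10.3 and 51.0 CPM of *Sult2a8* and 44.9 and 52.4 CPM of *Sult1d1*.

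For each member, the genes with the most similar pattern were taken as the 3 with the highest Pearson's r of log2 CPM over the 27 libraries, among 9760 expressed genes. For *Sult2a8* they were *Mup22* (0.96), *Mup18* (0.96) and *Mup19* (0.95), major urinary protein genes, and after subtracting group means *Pon1* (0.99), *Mup19* (0.98) and *Mup2* (0.98). For *Sult3a1* they included *Cyp2c69* (0.97) and *Slc22a26* (0.97), the first 2 of the 3. *Sult2a2* was closest to *Cyp3a41a* (0.93), *Kdm6a* (0.92) and *Ptar1* (0.89), *Sult2a1* to *Ids* (0.90), *Frs2* (0.88) and *Enpp1* (0.86), and *Sult2a3* to *Frs2* (0.84), *Zbtb44* (0.82) and *Ids* (0.82). *Sult1d1* was closest to *Aldh6a1* (0.89), *Sult1e1* to *Ankrd33b* (0.79) and *Sult1a1* to *Nrde2* (0.80). These are descriptions over libraries that share sex and stage.

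Other genes of the pathway were read from lists, mainly in KO females between Res and WDA, where 20.4% of genes passed. Of 10 other cytosolic sulfotransferase genes in the tables, 6 were tested and 4 passed: *Sult2a5* (4.99, SE 0.51), *Sult3a2* (2.59, SE 0.43) and *Sult2a7* (1.47, SE 0.36) rose, and *Sult1c2* fell by 1.42 on the log2 scale (SE 0.23). The first 3 are neighbours or close relatives of the members that rose. *Sult2a5* went from 0.0582 to 0.386 CPM to 3.93 to 9.71 CPM, and these values carry the limit given above for sequence shared with *Sult2a2*. *Sult2a4* and *Sult2a6* had at most 3 counts in any library.

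For PAPS supply and sulfate handling, 2 of 14 genes tested passed in KO females. *Cdo1*, cysteine dioxygenase, rose (0.60, SE 0.16), and *Slc35b2*, which carries PAPS into the Golgi, fell by 0.65 (SE 0.15), and the list median was 0.02 against 0.01 for all genes. In WT males, *Slc35b2* also fell, by 0.45 (SE 0.08), and *Slc35b3*, of the same function, rose (0.50, SE 0.12). Between the sexes none of the 14 was called in any of the 4 comparisons, where from 0.296% to 6.34% of genes were.

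Of 16 UDP-glucuronosyltransferases tested in KO females, *Ugt1a10* (1.62, SE 0.22) and *Ugt2a3* (0.83, SE 0.17) rose and *Ugt2b35* fell by 0.62 (SE 0.18). Of 11 carriers of conjugates, 3 fell and none rose: *Slc22a7* by 1.34 (SE 0.24), *Slco1b2* by 0.69 (SE 0.13) and *Abcb11*, the bile salt export pump, by 0.58 (SE 0.14). In WT males, where 11% of genes passed, 5 of 11 carriers fell, among them *Slc22a7* by 2.49 (SE 0.37) and *Slco1b2* by 1.12 (SE 0.27).

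Genes of growth hormone signaling and sex-biased regulation included *Cux2*, a female-biased transcription factor, which rose in KO females (4.59, SE 0.60) and in WT males (3.39, SE 0.74) after resolution, and *Socs2*, a growth hormone target, which rose by 2.06 (SE 0.37) and 2.11 (SE 0.29). In KO females *Igf1* rose (0.71, SE 0.16), and *Zhx2* and *Stat5b* fell by 1.19 (SE 0.16) and 0.50 (SE 0.13). In all, 5 rose and 2 fell of 15. Among 18 nuclear receptors and partners tested, *Nfe2l2*, *Nr0b2* and *Ppara* fell by 1.31 (SE 0.23), 0.86 (SE 0.24) and 0.76 (SE 0.20).

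Among 17 female-biased liver genes in KO females, 7 rose and 1 fell after resolution, with a median of 0.86, including *Cux2*, *Cyp3a16* (4.27, SE 0.35) and *Cyp3a41b* (3.35, SE 0.47) upward and *Cyp2b9*, which fell by 1.10 (SE 0.12). Of 13 male-biased genes tested, *Serpina1e* (2.78, SE 0.31) and *Cyp4a12b* (2.73, SE 0.46) rose and *Cyp2d9* fell by 0.76 (SE 0.18), with a list median of 0.17. Between the sexes in Res WT mice, 5 of 17 female-biased genes were lower in males and 13 of 16 male-biased genes were higher. All these calls had an adjusted p under 0.05 in edgeR. In WT females and KO males, where 0% of all genes passed between Res and WDA, no gene of the lists did either.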

How the data were processed

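RNA from whole liver of 27 mice was sequenced on the BGISEQ platform. Per the submitters' processing notes, reads were aligned with HISAT and Bowtie2 to GRCm38.p6, and the counting tool is not given in the sources used here. The 4 deposited tables give every gene an expected count, which the authors did not normalize, and an FPKM value, scaled by transcript length and library total. Genes that a table did not list were read as 0 in its libraries, as for *Sult2a3* in WDA males.

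Counts were rounded and tested in R 4.3.3 with edgeR 4.0.16 (filterByExpr with a minimum count of 10, TMM, glmQLFit and glmQLFTest, Benjamini-Hochberg over all genes tested, threshold 0.05), each comparison on its own groups. Standard errors came from the F statistic, intervals from its degrees of freedom. Alternatives were DESeq2 1.42.0, RLE scaling, no filter, at least 10 counts in every library, a spread shared by all groups, the deposited FPKM as log2(FPKM + 0.1) and each mouse left out. Library totals without scaling factors and leaving out 2 male KO mice together were added after seeing the data. The test was checked on simulated data for KO females between Res and WDA, with the same spread for all genes and changes only in well counted genes. That check does not cover members near 0 counts or groups with an outlying mouse. Mouse numbers name different animals. Libraries are separate mice, so p-values measure the spread between mice, and count intervals and floors cover counting error only.

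The members and gene lists were chosen with earlier results of these data known. All 8 members were read in every comparison, but the text does not name each of them in every one. From each list, up to 3 genes per direction with the largest change among those that passed were named. *Kdm5b* was read as a check of the labels. Promoter windows and positions are from RefSeq (GRCm38.p6) and transcripts from GENCODE vM21. Some genes that these rules select are not reported here.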

Additional observations from a re-analysis of the deposited data

How the results depend on the processing

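No paired analysis was possible because mouse numbers name different animals. The count of members called moved by over 1.5 times under these alternatives. With DESeq2 it was 1 for KO against WT in Res females, 1 for HepKO against WT, 4 and 3 for Res against WDA in WT females and WT males, and 2, 3, 4 and 1 for males against females in WDA WT, WDA KO, Res WT and Res KO mice. With a spread shared by all 9 groups it was 5, 0, 3 and 1 for Res against WDA in WT females, WT males, KO females and KO males, and 0, 1, 3 and 1 for the 4 sex comparisons in the same order. Without a filter it was 3 for Res against WDA in WT males and 1, 2 and 1 for the sexes in WDA KO, Res WT and Res KO mice. With at least 10 counts in every library it was 0 for the sexes in WDA WT and in Res WT mice, where the member called before was no longer tested. With library totals it was 2 for the sexes in WDA WT mice. Shares of all genes called are given above for DESeq2 and, with the shared spread, for KO females (11.5%). For the other settings they are not given, so those counts of members cannot be set against all genes. Except where stated, the cause was not tested.

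With each mouse left out, the count ran from 0 to 1 for KO against WT in Res females, for HepKO against WT and for the sexes in Res WT mice, from 0 to 2 for Res against WDA in WT males, from 0 to 3 for the sexes in WDA WT and in WDA KO mice and from 0 to 6 for the sexes in Res KO mice. Among single members, a change of sign was counted only where one of the values was called or exceeded its standard error. With the deposited FPKM, *Sult1a1* between the sexes in WDA WT mice was -0.064, *Sult2a2* in the stage-by-sex interaction of KO mice -0.48 and *Sult2a3* in the KO-by-sex interaction -0.0027, and *Sult1a1* between the sexes in WDA WT mice was -0.095 with library totals. Without WDA KO male 17 and Res KO male 5 together, an alternative chosen after seeing the data, *Sult1e1* and *Sult3a1* between Res and WDA in KO males were -0.40 and -0.24, and *Sult2a2* in the stage-by-sex interaction was -3.35. Over single mice left out, KO against WT in Res males ran from -0.37 to 5.88 for *Sult2a1* and from -1.28 to 5.83 for *Sult2a2*. The KO-by-sex interaction ran from -0.59 to 5.63 for *Sult2a1*, from -1.62 to 5.47 for *Sult2a2* and from -1.15 to 4.83 for *Sult2a3*, and the stage-by-sex interaction of KO mice for *Sult2a2* from -2.95 to 4.05, each lowest without Res KO male 5. *Sult1e1* between the sexes in Res WT mice ran from -2.65 to 0.011, highest without female 13. Library totals, also added after seeing the data, shifted the median of all genes by -0.32 to 0.21. Members near 0 counts in males are limited by depth, and 3 mice a group limit every test.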
